A study of Homo sapiens with 7 samples.

Results

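The genes that license DNA for replication were examined in Rb CUT&RUN peak lists from ZR-75-1, an oestrogen receptor-positive breast cancer cell line. The 9 genes were grouped by function, and the rule that chose them uses no value in these lists. They were chosen with earlier results of these data known, so the choice was not blind. They are the 6 subunits of the origin recognition complex (ORC1, ORC2, ORC3, ORC4, ORC5 and ORC6), the loading factors CDC6 and CDT1, and GMNN, which encodes geminin. They were taken from 19970 protein-coding genes on chromosomes 1 to 22 and X. A peak was given to a gene when it overlapped a window that began 2000 bp before the start (TSS) of any of its transcripts and ended 500 bp after it, and peaks elsewhere in the gene were searched for as well.

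The series held 7 peak lists. Parental cells were profiled with an Rb antibody after 4 days in DMSO (2 libraries) or 500 nM palbociclib, a CDK4/6 inhibitor (2 libraries). Knockout cells lacking RB1, the gene for Rb, gave 1 library with DMSO and 1 with palbociclib, and a non-targeting IgG2a antibody gave 1 library from parental cells in palbociclib. Per the study's methods, the knockout cells came from a sorted single cell, so that a clone stands for the genotype, and the parental replicates were independent cultures.

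Licensing is the loading of the MCM helicase onto DNA before S phase. The origin recognition complex marks the origin, CDC6 and CDT1 bring the helicase to it, and geminin binds CDT1 and blocks further loading once S phase has begun. Several of these genes are textbook targets of E2F, the transcription factor family that hypophosphorylated Rb binds and restrains, and palbociclib blocks the kinases that phosphorylate Rb in G1. The comparison of palbociclib with DMSO therefore asks where Rb lay at the licensing genes when its inhibitory phosphorylation was reduced.

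The sequence under the peaks is shown first, because the members differed in it. Each stretch is from hg38, is written 5′ to 3′ in the direction of the gene and lies within at least 1 palbociclib peak. Capitals mark the E2F words (TTTGGCGC, TTTCCCGC, TTTGCCGC or TTTCGCGC), and CCAAT, the core of the NF-Y site, on either strand. In CDT1 and ORC1 they also mark GGGCGG, the SP/KLF box, and the shorter E2F core, which is an E2F word without its first T. In ORC2 they mark the shorter core and CCAAT. The CDC6 and GMNN stretches hold a full E2F word next to CCAAT boxes, the CDT1 stretch an E2F word and a shorter core beside an SP/KLF box, and the ORC4, ORC5 and ORC6 stretches CCAAT alone. Outside their stretches the ORC4 and ORC6 peaks also held GGGCGG boxes.
CDC6, chr17:40287729-40287893, plus strand: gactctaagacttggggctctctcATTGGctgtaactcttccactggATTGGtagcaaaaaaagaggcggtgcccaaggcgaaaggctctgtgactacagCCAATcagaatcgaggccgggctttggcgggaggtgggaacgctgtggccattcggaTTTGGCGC
CDT1, chr16:88803714-88803784, plus strand: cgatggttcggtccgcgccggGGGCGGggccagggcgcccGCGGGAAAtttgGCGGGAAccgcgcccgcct
GMNN, chr6:24775307-24775377, plus strand: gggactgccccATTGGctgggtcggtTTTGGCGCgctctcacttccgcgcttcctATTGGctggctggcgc
ORC1, chr1:52404428-52404513, minus strand: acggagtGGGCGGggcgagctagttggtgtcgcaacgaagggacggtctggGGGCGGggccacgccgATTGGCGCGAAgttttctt
ORC2, chr2:200963591-200963620, minus strand: gtcggGCGCGAAttactggaaATTGGcttt
ORC3, chr6:87590111-87590140, plus strand: ccgcgagggcgcGCGGGAAAtcccgagtgc
ORC4, chr2:148020496-148020525, minus strand: gctgtggagATTGGgaATTGGgaagggggc
ORC5, chr7:104207752-104207781, minus strand: cttgcgacctgttCCAATatttgttttttc
ORC6, chr16:46689259-46689354, plus strand: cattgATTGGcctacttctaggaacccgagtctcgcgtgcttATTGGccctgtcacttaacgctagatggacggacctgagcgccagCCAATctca

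All 9 licensing genes carried an Rb promoter peak in both palbociclib libraries, and none had one in the RB1 KO or IgG2a libraries. Promoter peaks in both palbociclib libraries were found at 34.9% of all protein-coding genes. Without palbociclib, ORC2, CDC6 and GMNN had a peak in both DMSO libraries (2.90% of all genes), ORC6 in DMSO replicate 1 and CDT1 in DMSO replicate 2 (3.66% of all genes had a peak in both palbociclib libraries and exactly 1 DMSO library). ORC1, ORC3, ORC4 and ORC5 had none in either and were called gained, as were 28.4% of all genes. Among the 6974 genes with a promoter peak in each palbociclib library, 8.32% had one in both DMSO libraries, 10.5% in exactly 1 and 81.2% in neither. In total 26 peaks were assigned to the members, all of them at promoters and 18 of them in the palbociclib lists. No member had a peak in its body alone.

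The deposited lists held 996 and 816 peaks with DMSO, 8399 and 8256 with palbociclib, 65 and 51 from the RB1 KO cells and 2648 with IgG2a. On chromosomes 1 to 22 and X, the 2 RB1 KO lists kept only 4 and 5 peaks, and RB1 itself has no level in peak lists, so these counts are the only check of the knockout that the deposited lists allow. Read totals are not in the lists. The lowest background of a list, a floor that scales with its fragments, was 0.571 and 0.465 with DMSO and 0.516 and 0.549 with palbociclib. Promoter peaks in RB1 KO were listed at 0.0100% and in IgG2a at 1.95% of protein-coding genes, so that 0 of 9 members was also the usual state of a gene in those lists.

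**Figure D1:**
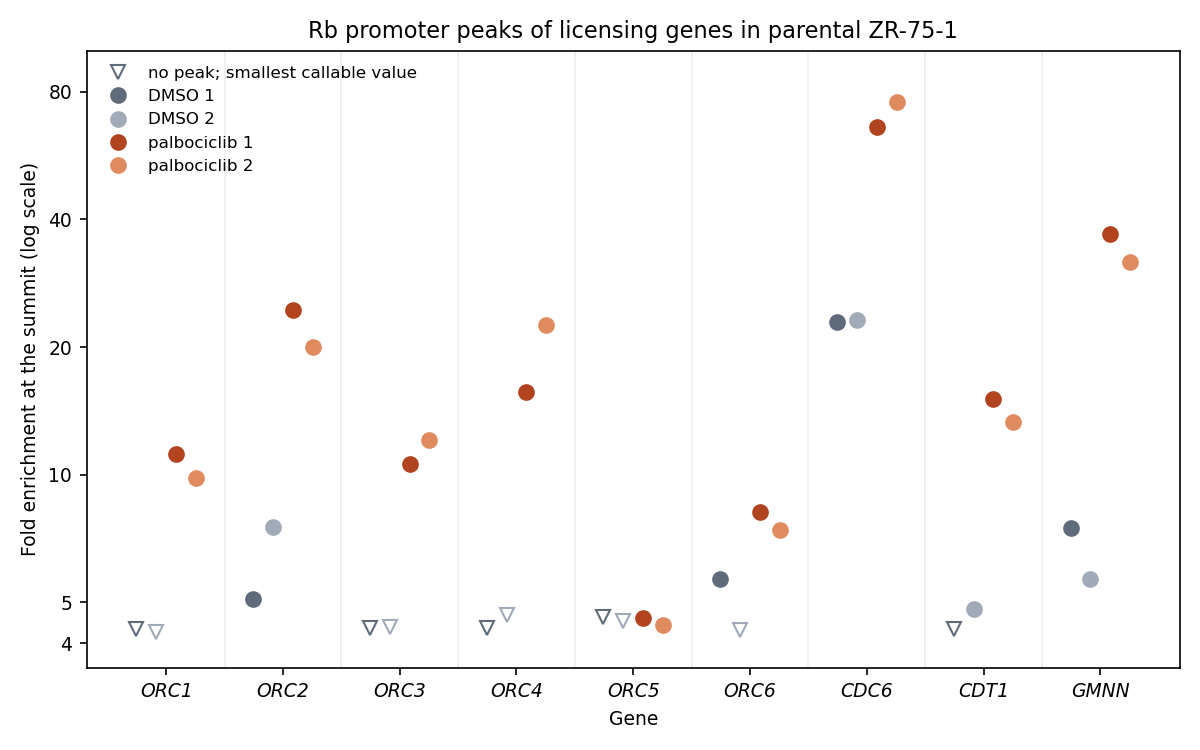
Fold enrichment at the peak summit (log scale) for each licensing gene in the 4 parental libraries; filled circles are called peaks and open triangles mark libraries with no peak, drawn at the smallest fold enrichment that would have been called there. CDC6 stands highest in every library, and the 2 palbociclib values of ORC5 lie level with the triangles of its DMSO libraries.

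CDC6, the ATPase that joins ORC on DNA and recruits CDT1 with the helicase, had the strongest Rb peak of the group in all 4 parental libraries. Its fold enrichment, which sets the fragments piled at the summit against the local background, was 22.9 and 23.1 with DMSO and rose to 66.1 and 75.8 with palbociclib. The group means were 23 ± 0.0968 and 71.0 ± 6.87 (SD, n = 2). By fold enrichment the CDC6 peak ranked 4 of 996 and 3 of 816 in the DMSO lists and 7 of 8399 and 3 of 8256 in the palbociclib lists. Its level averaged over the 2 palbociclib lists (geometric mean 70.8) was the highest of the 6974 genes. CDC6 was thus already among the leading Rb sites before treatment. The groups did not overlap, which is no mark of CDC6. Of the 476 sites called in all 4 parental lists, 475 (99.8%) rose with palbociclib.

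Recovered pileups gave the depth behind these ratios. At CDC6 the summit carried 40 and 37 fragments in the DMSO libraries, and palbociclib brought 112 and 132. The 95% Poisson intervals, which cover counting error only, were 28.6 to 54.5 and 26.1 to 51.0 against 92.2 to 135 and 110 to 157. The DMSO intervals lay wholly below the palbociclib ones.

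The palbociclib peaks of CDC6 were 1118 and 1026 bp wide against 540 and 549 bp with DMSO, and all 4 covered the TSS. The summits lay 143 and 114 bp upstream of the TSS with DMSO and 84 and 109 bp upstream after palbociclib. The palbociclib summits fell among the 3 CCAAT boxes shown above, whose centres were 8 to 61 bp from the summit of replicate 2 and 17 to 40 bp from that of replicate 1, whereas the summit of DMSO replicate 1 lay upstream of all 3. The TTTGGCGC word lay just downstream of the TSS, at positions 7 to 14, and 94 and 120 bp from the 2 palbociclib summits. A TTTGGCGG upstream of the TSS, in lower case above, differs from that word in its last letter. It was not among the words searched for and is in no count here.

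GMNN was the second highest member with palbociclib. Geminin inhibits CDT1 and so opposes licensing. Fold enrichment was 7.49 and 5.66 with DMSO against 37.0 and 31.7 with palbociclib, with means of 6.58 ± 1.29 and 34.3 ± 3.74 (SD, n = 2). Pileups of 19 and 10 fragments with DMSO stood against 66 and 68 with palbociclib. Neither measure overlapped between groups, in a comparison where 475 of 476 sites (99.8%) rose. GMNN ranked 165 of the 6974 genes by palbociclib level.

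The GMNN peak extended into the gene. Palbociclib peaks were 766 and 768 bp wide and reached 705 and 673 bp downstream of the TSS, with summits 104 and 210 bp downstream, in the 5′ UTR. The DMSO peaks were 529 and 230 bp wide, with summits 370 bp downstream (in the first intron) and 187 bp downstream. The TTTGGCGC word of GMNN sits in the intron at positions 396 to 403, with CCAAT boxes on both sides of it. It lay 296 and 190 bp from the palbociclib summits, and it was thus within the peaks but outside the summit windows used for motif counts.

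CDT1, the helicase loading partner of CDC6, had no peak in DMSO replicate 1. Fold enrichment was 4.82 in DMSO replicate 2 and 15.1 and 13.3 with palbociclib (14.2 ± 1.29, SD, n = 2). The lower palbociclib value was 2.76 times the single DMSO value. The smallest fold enrichment that would have been called at CDT1 in DMSO replicate 1 was 4.33, so a peak like that of replicate 2 would have passed there by little. Pileups were 9 fragments in the DMSO peak and 32 and 29 with palbociclib.

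The CDT1 summit was the most stable in position. It lay 44 bp upstream of the TSS in each of the 3 lists that called it, and in the DMSO list this was the upstream edge of a peak of 133 bp. The palbociclib peaks were 542 and 603 bp wide. The GCGGGAAA match, which is TTTCCCGC on the opposite strand, was centred 12 bp from the summit and the SP/KLF box 8 bp. CDT1 was the only member with a full E2F word within 75 bp of the palbociclib replicate 1 summit.

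ORC2, a subunit of the core of the complex, had peaks in all 4 parental libraries. Fold enrichment was 5.09 and 7.51 with DMSO and 24.4 and 20 with palbociclib (6.3 ± 1.71 and 22.2 ± 3.11, SD, n = 2). Pileups were 7 and 10 against 36 and 30 fragments. The groups did not overlap, again where 475 of 476 sites (99.8%) rose. ORC2 ranked 517 of 6974 genes with palbociclib.

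The ORC2 summits lay in the 5′ UTR, 102 and 142 bp downstream of the TSS with DMSO and 104 and 38 bp downstream with palbociclib. The peaks widened from 195 and 256 bp to 623 and 560 bp. The shorter E2F core TTCGCGC, on the strand opposite to the gene, was centred 56 and 10 bp from the palbociclib summits and a CCAAT box 41 and 25 bp.

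ORC4 was the strongest of the 4 gained members. It had fold enrichments of 15.7 and 22.6 with palbociclib (19.1 ± 4.86, SD, n = 2; pileups 24 and 34) and no peak with DMSO. The smallest callable values in the DMSO lists at this promoter were 4.34 and 4.67, so the lower palbociclib value stood 3.62 and 3.36 times above them. Summits lay 96 and 67 bp downstream of the TSS in the 5′ UTR, and the peaks were 766 and 755 bp wide. No E2F word, full or short, was found in the ORC4 peaks.

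ORC1 is the subunit whose protein level is known to cycle in human cells. Its fold enrichments were 11.2 and 9.79 with palbociclib (10.5 ± 0.976, SD, n = 2; pileups 21 and 19). These were 2.26 and 2.3 times the smallest callable DMSO values of 4.33 and 4.26 when the lower palbociclib value was used. The peaks were broad, at 853 and 1014 bp, and the 2 summits disagreed by 344 bp. One lay 283 bp downstream in the first intron and the other 61 bp upstream. The upstream summit was 42 and 45 bp from the overlapping cores TTGGCGC and TTCGCGC, printed above within ATTGGCGCGAA, which also holds a CCAAT box on the opposite strand, and the intronic one 91 bp from a TTCCCGC.

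ORC3, another core subunit, had fold enrichments of 10.6 and 12.1 with palbociclib (11.3 ± 1.06, SD, n = 2; pileups 19 and 30). The lower value was 2.44 and 2.43 times the callable limits of 4.34 and 4.37. One summit lay 117 bp upstream and the other 25 bp downstream of the TSS, 142 bp apart, in peaks of 628 and 470 bp. The full E2F match GCGGGAAA ended 5 bp before the TSS, 108 and 34 bp from the summits.

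ORC6, the smallest subunit of the complex, changed least among members with a DMSO value. Fold enrichment was 5.66 in DMSO replicate 1 and 8.15 and 7.39 with palbociclib (7.77 ± 0.539, SD, n = 2), a ratio of mean palbociclib to the single DMSO value of 1.37. Pileups were 13 against 19 and 18 fragments. Their 95% Poisson intervals of 6.92 to 22.2, 11.4 to 29.7 and 10.7 to 28.4 overlapped. In DMSO replicate 2 any value below 4.31 would have gone uncalled.

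ORC6 peaks were wide for their height. They spanned 1315 and 820 bp with palbociclib and 273 bp with DMSO, with palbociclib summits 274 and 268 bp upstream of the TSS. The peaks held 5 CCAAT boxes, several GGGCGG boxes and no E2F word of either length. A GGGCGG box was centred 10 and 16 bp from the palbociclib summits. The nearest CCAAT box was 37 and 43 bp from them.

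ORC5 was the weakest member and the least certain. Fold enrichments were 4.6 and 4.41 with palbociclib, on pileups of 7 and 8 fragments, and the peaks were only 163 and 172 bp wide. The replicate peaks did not overlap. They were 76 bp apart, with summits 306 bp downstream (intron) and 5 bp upstream of the TSS. The smallest callable values in the DMSO lists, 4.61 and 4.51, were above the lower palbociclib value, so a DMSO library with the same enrichment could have given no call, and the absence of a DMSO peak at ORC5 carries no information on a difference. The peaks held no E2F word and no SP/KLF box.

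**Figure D2:**
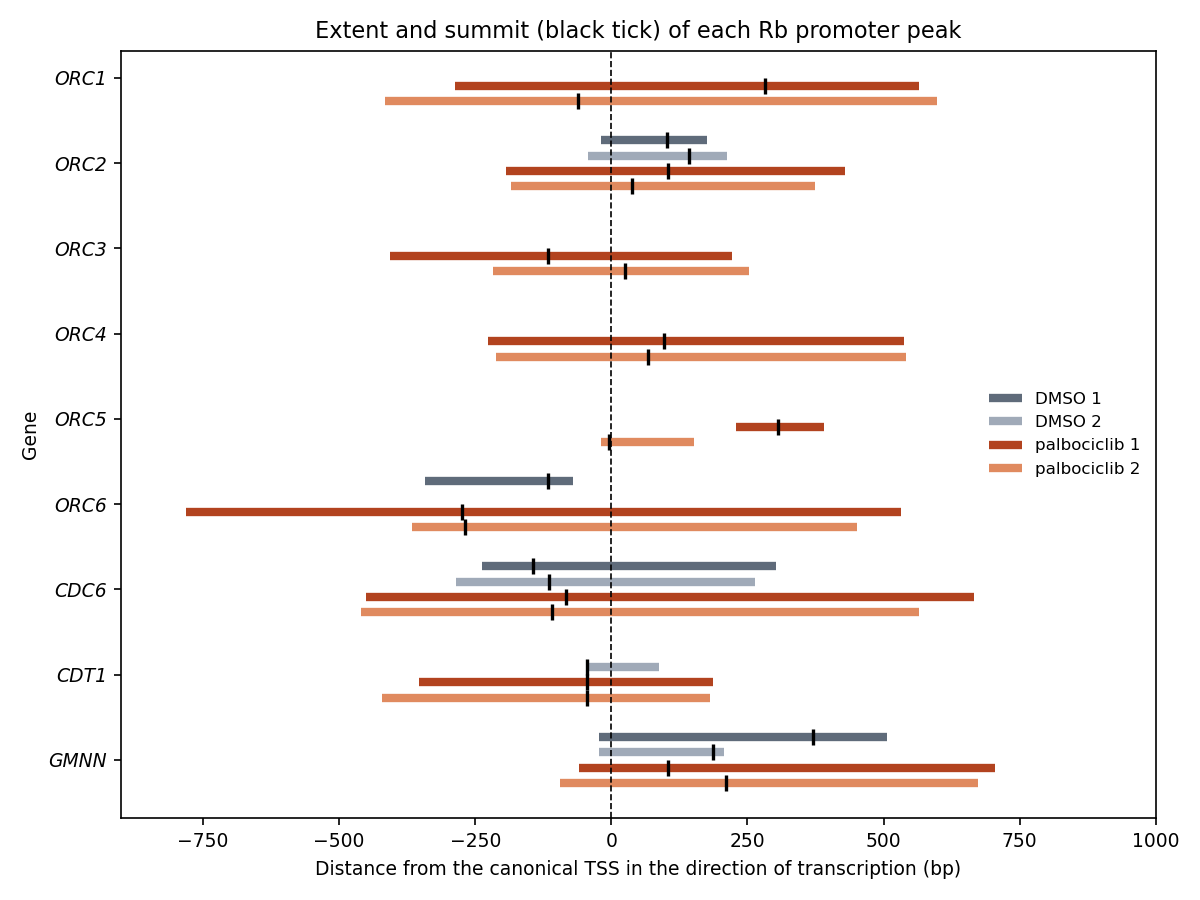
Extent of each Rb promoter peak (bars) and its summit (black ticks) relative to the canonical TSS (dashed line, in bp, negative is upstream) in the parental libraries that called it. CDT1 summits coincide at 44 bp upstream, ORC1 summits are 344 bp apart and the 2 ORC5 peaks do not overlap.

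Peaks of the licensing genes sat close to the TSS. In the palbociclib lists 17 of 18 member summits were within 300 bp of the canonical TSS, as were 75.4% and 75.7% of all promoter peaks in the 2 lists, and 17 of 18 peaks covered the TSS itself. The exception in both counts was ORC5 in palbociclib replicate 1. The summits were divided evenly, with 9 upstream and 9 downstream. Members were also wider than most promoter peaks, with a median width of 766 and 755 bp against 483 and 470 bp for all promoter peaks of the lists. In both lists 8 of the 9 members exceeded the median of all peaks, promoter or not, in width (459 and 445 bp). The same held for 8 of 9 in fold enrichment (6.93 and 6.86). Against the promoter medians, ORC3 in palbociclib replicate 2 only equalled the width of 470 bp. These are descriptions over few genes, with no test.

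Divergent neighbours shared several of these promoters. The TSS of PRPF38A, a splicing factor gene, lies 179 bp from that of ORC1 on the opposite strand, and both ORC1 peaks covered it. The summits lay 283 and 61 bp from the ORC1 start and 462 and 118 bp from that of PRPF38A. RARS2, a mitochondrial arginyl-tRNA synthetase gene, starts 148 bp from ORC3, and the replicates differed in which start was nearer. The summit of palbociclib replicate 1 was 31 bp from the RARS2 start and 117 bp from that of ORC3, and the summit of replicate 2 was 173 bp and 25 bp from them. The ORC6 summits lay 207 and 213 bp from the start of VPS35, a retromer subunit gene, and 274 and 268 bp from that of ORC6. MBD5 starts 354 bp from ORC4, outside the ORC4 peaks. A lncRNA, ENSG00000183308, starts on the strand opposite to ORC2 and 397 bp within it. At ORC1, ORC3 and ORC6 the peak cannot be ascribed to either gene of the pair, whereas CDC6, CDT1, GMNN and ORC5 had no other gene start within 1000 bp.

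**Figure D3:**
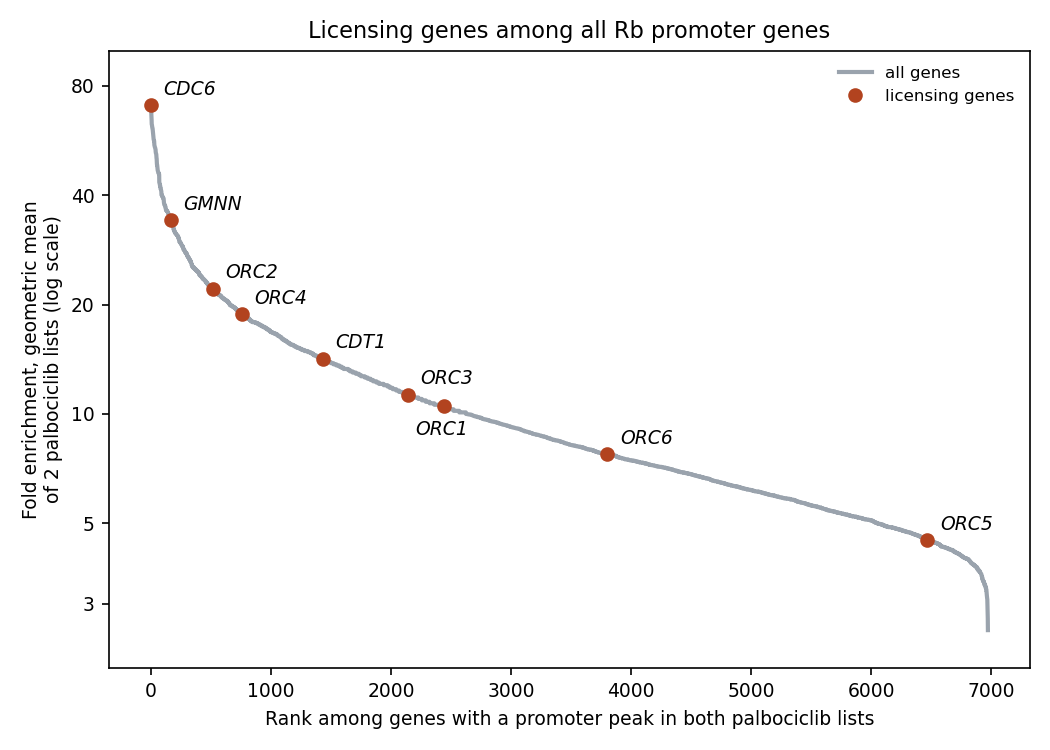
Genes with an Rb promoter peak in both palbociclib lists, ordered by the geometric mean of their 2 fold enrichments (log scale), with the 9 licensing genes as points on the curve of all 6974 genes. CDC6 is first, and the other members spread down to rank 6470 for ORC5.

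The licensing genes spanned nearly the whole range of Rb promoter enrichment. After CDC6 (rank 1) and GMNN (rank 165) came ORC2 (517), ORC4 (759), CDT1 (1434), ORC3 (2140), ORC1 (2446), ORC6 (3803) and ORC5 (6470). The median geometric mean was 14.2 over the members and 8.23 over all 6974 genes. The replicates of a member differed by 1.04-fold (ORC5) to 1.44-fold (ORC4), so the order of ORC3 (10.6 and 12.1) and ORC1 (11.2 and 9.79) is not resolved, nor is that of ORC2 (24.4 and 20) and ORC4 (15.7 and 22.6). The replicate values of no other neighbouring pair overlapped, although ORC4 (lowest 15.7) and CDT1 (highest 15.1) came close. The replicate values of CDC6 and GMNN overlapped neither each other nor those of the rest.

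The RB1 KO lists set a less sensitive limit than the DMSO lists. A peak at these promoters would have needed a fold enrichment of 4.80 to 5.53 in RB1 KO cells. The lower palbociclib value of CDC6 was 12.6 and 13.3 times that limit in the 2 RB1 KO libraries, that of GMNN 6.4 and 6.45 times and that of ORC6 1.51 and 1.52 times. ORC5 was below it, at 0.837 and 0.854 times, so the missing RB1 KO peak at ORC5 could not show a loss of binding. With 1 library per treatment, RB1 KO was not tested.

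The change of CDC6, ORC2 and GMNN with palbociclib could be tested, since they alone were called in all 4 parental lists. limma was run on log2 fold enrichment over the 476 sites called in all 4. Enrichment rose at each of the 3, with a log2 difference of 1.62 (SE 0.23, adjusted p = 1.05e-05) at CDC6, 1.84 (SE 0.25, adjusted p = 1e-05) at ORC2 and 2.39 (SE 0.24, adjusted p = 1.61e-06) at GMNN. Both palbociclib values exceeded both DMSO values at each gene. The rise was not particular to them, because 475 of the 476 sites (99.8%) rose and 0 fell at an adjusted p under 0.05, with 475 sites at an unadjusted p under 0.05.

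**Figure D4:**
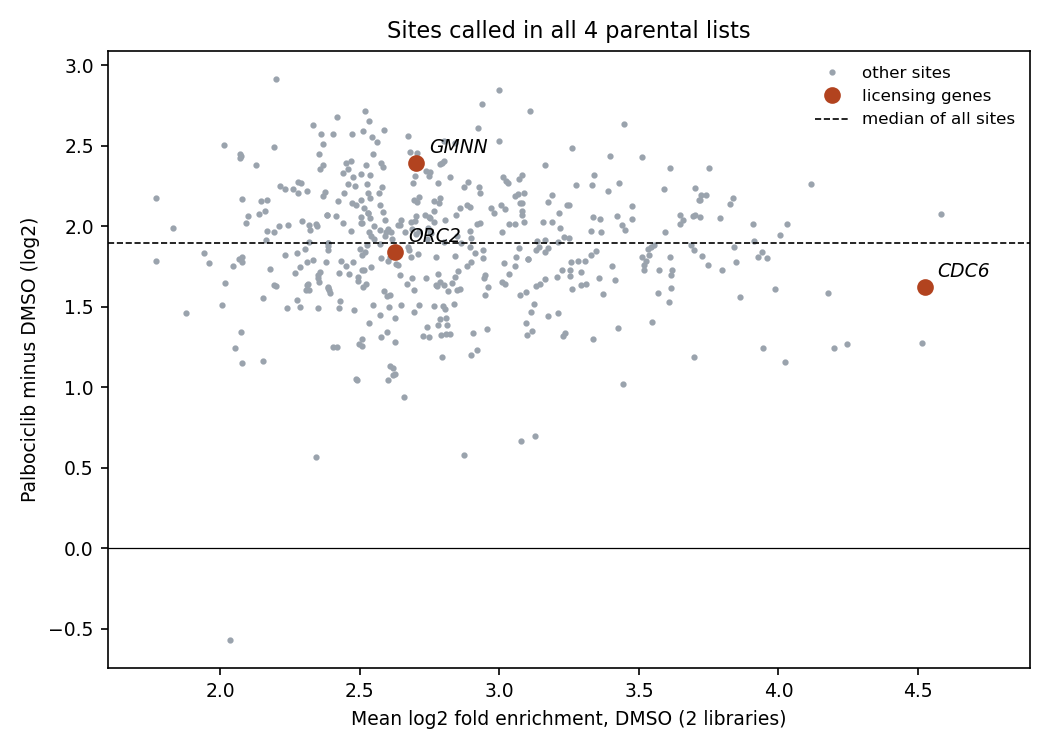
Difference in log2 fold enrichment between palbociclib and DMSO against the mean log2 fold enrichment with DMSO, for the 476 sites called in all 4 parental lists, with the licensing genes as large points. The dashed line is the median difference of 1.90; GMNN lies above it, ORC2 close to it and CDC6 below it at the far right.

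The differences at the 3 genes lay within the range of the other sites. The median difference over the 476 sites was 1.90 (quartiles 1.64 and 2.14), a 3.73-fold rise. GMNN ranked 39, ORC2 264 and CDC6 371 of 476 by size of difference. After each list was centred on its median, the differences were 0.47 at GMNN (adjusted p = 0.339), −0.09 at ORC2 (adjusted p = 0.878) and −0.30 at CDC6 (adjusted p = 0.525) by limma, and none passed the threshold. Only 2 of the 476 sites passed at this setting, both lower. Not passing therefore does not show that the 3 genes behaved like the rest. For a single gene, the exact permutation test of 2 libraries against 2 gave p = 0.333, two-sided, at each of the 3, which is the smallest p that this design allows.

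The median rise was also set beside the callable limits, although it comes only from sites high enough to be called in DMSO. Dividing the palbociclib geometric mean by 3.73 gives 2.82 for ORC1 and 3.03 for ORC3, which are below the callable limits of 4.26 to 4.37 at these promoters. At CDT1 it gives 3.81, under the limit of 4.33 in DMSO replicate 1 where no peak was called. The limits are themselves estimates from each gene's rescaled palbociclib background. Whether these genes rose like the sites called in DMSO was not tested. ORC4 gives 5.05, above its limits of 4.34 and 4.67, with no DMSO peak. Its 2 palbociclib values differed by 1.44-fold, which is more than 5.05 stands above either limit. ORC6 gives 2.08, yet it was called in DMSO replicate 1 at 5.66. Neither ORC4 nor ORC6 was tested, as uncalled sites have no value.

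Sites with the most similar values over the 4 parental lists were found by Euclidean distance in log2 fold enrichment. For CDC6 these were MCM5, a helicase subunit gene (distance 0.63; fold enrichment 19.0 and 27.5 with DMSO, 52.4 and 58.2 with palbociclib), FAM111B (0.77) and SIVA1 (0.79). For ORC2 they were CAMKK2 (0.17), CCSAP (0.17) and ANKHD1, whose readthrough gene ANKHD1-EIF4EBP3 shares the site (0.25). For GMNN they were GPHN (0.13), DNAAF3 (0.20) and RABIF (0.21). CDC6 had few sites near its level, and its distances were accordingly the longest.

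Motif counts around the summits were taken in palbociclib replicate 1 and set beside all 7290 promoter peaks of that list. A full E2F word lay within 75 bp of the summit in 1 of 9 members (CDT1) and in 3.64% of promoter peaks, and within 150 bp in 3 members (ORC3, CDC6 and CDT1) and 8.27%. The shorter core was within 75 bp in 2 members (ORC2 and CDT1) against 16.3% of promoter peaks, and within 150 bp in 5 (ORC1, ORC2, ORC3, CDC6 and CDT1) against 32.8%. CCAAT was within 75 bp in 5 members (ORC2, ORC3, ORC5, ORC6 and CDC6) against 19.2%, and within 150 bp in 6 (ORC4 in addition) against 31.2%. GGGCGG was within 75 bp in 3 members against 57.5%, and within 150 bp in 6 against 81.9%. From the replicate 2 summits, the full E2F word of ORC3 was centred 34 bp away and a shorter core of ORC1 42 bp, both within 75 bp. The CCAAT box of ORC3 was 92 bp from its replicate 2 summit and so outside. The counts thus depend on the replicate, and no background was counted for replicate 2.

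Other words were rare. The CHR element (TTTGAA or TTCGAA), through which the MuvB complex contacts late cell cycle promoters, was within 75 bp of the summit in 0 members and 3.28% of promoter peaks, and within 150 bp in ORC5 alone and 6.72%. The ETS word CCGGAAGT was in 0 members at either width, against 2.22% and 4.75%. Every full E2F word is also counted as a shorter core. Over whole palbociclib peaks, 4 members held a full E2F word (ORC3, CDC6, CDT1 and GMNN) and 6 a core of either length. A CCAAT box was held by 8 (not CDT1) and GGGCGG by 8 (not ORC5). A CHR word was held by 2 (ORC1 and ORC3), while the one near the ORC5 summit lay outside the ORC5 peaks. The share of all promoter peaks was not counted over whole peaks, and member peaks were wider than most. These whole-peak counts therefore have no background and may be usual for peaks of that width. A match is a string of letters and not evidence of binding.

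The rest of the licensing and helicase activation pathway was described with a list of 40 genes. Of these, 36 had a promoter peak in each palbociclib library (34.9% of all genes), 1 (DBF4B, a regulatory subunit of the CDC7 kinase) in 1 of them, and 3 in neither: DDB1, an adaptor of the ligase that degrades CDT1, SKP1, a subunit of the SCF ligase, and FZR1, an activator of the anaphase-promoting complex. None of the 40 had a peak in the RB1 KO or IgG2a lists, where 0.0100% and 1.95% of all genes had one. The median geometric mean of fold enrichment over the 36 was 15.0 with palbociclib, against 14.2 over the 9 licensing genes.

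Peaks in both DMSO libraries were found at 10 of the 40, and at 2.90% of all genes. They were the helicase subunit genes MCM3, MCM4, MCM5 and MCM7, the histone acetyltransferase gene KAT7, whose product acts with ORC in licensing, the GINS subunit gene GINS2, DTL and PCNA, whose products direct CDT1 to degradation, FBXO5, an inhibitor of the anaphase-promoting complex, and CCNE2, a cyclin of CDK2. Their palbociclib geometric means ran from 15.4 (GINS2) to 60.5 (DTL), with a median of 45.6. A further 10 were called in 1 DMSO library (6.64 to 46.0, median 19.2), as were 3.66% of all genes, and 16 were gained (6.28 to 16.0, median 9.35), as were 28.4% of all genes. Among the licensing genes the 3 called in both DMSO libraries had 22.1 to 70.8, above the other 6, while the 2 called in 1 (7.76 and 14.2) and the 4 gained (4.50 to 18.8) overlapped, with ORC4 above ORC6 and CDT1. The calls and the heights come from the same peaks, so these orders are not a separate result.

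At the extremes, DTL had fold enrichments of 13.7 and 12.7 with DMSO against 49.4 and 74.1 with palbociclib, close to CDC6 on the palbociclib side. FBXO5 had 12.1 and 5.29 with DMSO and 59.4 and 55.6 with palbociclib. CCNE2 had 23.3 and 14.1 against 51.8 and 57.0. The DMSO and palbociclib values of these genes did not overlap, which is no mark of them, since 475 of the 476 sites called in all 4 lists (99.8%) rose. DTL and DDB1, which encode parts of the same ligase for CDT1, thus differed, with a strong peak at DTL and no called peak at DDB1.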

How the data were processed

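Rb CUT&RUN was analysed in 7 libraries, grouped by sample title. Per the study's methods and processing notes, the authors trimmed reads (BBDuk), aligned them to hg38 (Bowtie2 2.3.4.1), kept duplicates and called peaks per library against IgG with MACS2 2.2.7.1. The control of the IgG2a list is not given in the sources used here. The deposited fold enrichment is the authors' ratio of pileup to background at the summit, with 1 added to each. The added 1 makes it smaller than the plain ratio of the recovered pileup and background. The deposited −log10 p and −log10 q are also the authors'. The deposited score and summit offset were read as given. Summit pileups and backgrounds were recovered from fold enrichment and −log10 p (largest misfit 0.00551 in −log10 p), which was checked on simulated data. The smallest callable value is the lowest pileup whose p reaches the weakest peak of that list, at the gene's palbociclib background rescaled by the floors. Peaks were matched to GENCODE 44 by at least 1 bp. limma 3.58.1 (R 4.3.3) with Benjamini-Hochberg adjustment compared 2 palbociclib with 2 DMSO libraries over all 476 sites, unblocked, and was tested on simulated data. Alternatives covered the promoter window, transcripts, thresholds, scaling and libraries left out.

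The 9 genes, the pathway list of 40 genes, the motifs and the tests were chosen with earlier results of these data known. All 9 members were named. Pathway genes were named where both DMSO libraries or neither palbociclib library had a peak, with DBF4B named as the single partial case. DTL, FBXO5 and CCNE2 were chosen for fuller values after their levels were seen.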

Additional observations from a re-analysis of the deposited data

How the results depend on the processing

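Of 63 values recomputed under alternatives, 54 kept their direction and side of the threshold or stayed within 1.5 times the count. With only the 816 best peaks of every parental list, 2 members (CDC6 and GMNN) kept their palbociclib calls in both libraries and 0 were gained, as this setting drops most palbociclib peaks by construction. With −log10 q of at least 5, 1 member (CDC6) had a peak in both DMSO libraries. That cutoff or a fold enrichment of at least 5 removed ORC5 from the palbociclib count, leaving 8. The gained genes then were ORC1, ORC3, ORC4, ORC6 and CDT1 at the −log10 q cutoff. At the fold enrichment cutoff they were ORC1, ORC3, ORC4 and CDT1, so the count stayed at 4 with CDT1 in place of ORC5. With each parental library left out in turn, the palbociclib count stayed at 9, the DMSO count was 3 to 4 and the gained count 4 to 5. Leaving a library out only dropped its own call from the rule, so none of these counts could fall. The palbociclib count already held all 9 members and could not rise either. These settings are among the 54 and do not test the counts. Without DMSO replicate 1 the fourth gene with a DMSO peak was CDT1 and without replicate 2 it was ORC6. Sites rising by limma numbered 0 after centring, where 2 fell and 80 had an unadjusted p under 0.05, and 52 of 53 at 50% reciprocal overlap, which kept none of the 3 licensing sites. CDC6 and ORC2 changed sign after centring (−0.30 and −0.09). Without each library in turn, which leaves 1 library in an arm that limma then assumes to vary like the other arm, 465 to 473 sites rose, and the differences were 1.52 to 1.72 at CDC6, 1.56 to 2.12 at ORC2 and 2.19 to 2.59 at GMNN. The window of 150 bp gave a full E2F word in 3 members. Same-numbered libraries did not deviate together (correlation 0.0748 over 476 sites). With the replicate number as a replicate block 475 sites rose, and no call changed. Low pileups (7 to 13 fragments in the DMSO peaks of ORC2, ORC6 and CDT1, and 10 at GMNN in DMSO replicate 2) limit what the DMSO lists can show.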
